A study of Rattus norvegicus with 24 samples.

Results

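RGS proteins, the regulators of G-protein signalling, are described here through 9 of their genes in the rat nucleus accumbens (NAc), a ventral part of the striatum that receives dopamine and takes part in reward. They are Rgs2, Rgs3, Rgs4, Rgs7, Rgs8, Rgs9, Rgs10, Rgs14 and Rgs16. The genes were taken by their symbols in the annotation of the array's probes, which names 13337 genes in all. Each of the 9 genes was measured by 1 probe, and all 9 were kept by the filter on dim probes (at least 4 arrays with a detection p under 0.05). The probe of Rgs16 was detected on only 7 of 24 arrays, and the other 8 probes on all 24.

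Male Sprague-Dawley rats were given a first injection of saline or of methamphetamine (METH, 10 mg/kg), a stimulant that releases dopamine. A month later they were given saline or METH again, now at 2.5 mg/kg, and they were killed 2 h after this second injection. The 4 groups were saline at both injections (SS, 4 arrays), saline then METH (SM, 6 arrays), METH then saline (MS, 7 arrays) and METH at both (MM, 7 arrays). The labels call the tissue NAc and its source striatal, and they do not tie an array to a single rat, so that p-values measure the spread between these samples.

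When a receptor is activated, the alpha subunit of its G protein binds GTP and signals until that GTP is split. RGS proteins bind the active alpha subunit and speed up the splitting, so that they shorten the signal of the receptor. In the striatum, dopamine, adenosine, opioid, muscarinic and cannabinoid receptors all signal in this way. The RGS genes fall into families by their sequence. Rgs7 and Rgs9 belong to the R7 family, whose proteins pair with the beta subunit Gnb5, and Rgs9 has a splice form that is concentrated in the striatum. Rgs2, Rgs3, Rgs4, Rgs8 and Rgs16 belong to the R4 family of mostly small proteins, and Rgs10 and Rgs14 belong to the R12 family.

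Values are log2 intensities after background correction and quantile normalization. A difference was called at an adjusted p under 0.05, from limma's moderated test with Benjamini-Hochberg adjustment over all 12951 probes tested. The median intensity of an array lay between 10.0 and 23.0, and between 49.3% and 53.8% of the 22523 probes were detected on an array. Weights estimated from the spread of each array over all probes were under 0.5 for 3 arrays, namely 0.340 for SS replicate 1, 0.320 for MS replicate 1 and 0.250 for SM replicate 3. For the calls of RGS genes in MS and SM against SS, in MM against SM and in the interaction, values without these arrays are given as well. Medium spiny neurons make up most of the striatum, and of 18 genes that mark them 15 had a probe, and all 15 were detected. Genes that mark hypothalamic and preoptic neurons were detected as well (8 of the 12 with a probe passed the filter), while 3 of that list (Nkx2-1, Sim1 and Esr1) were detected on no array.

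Rgs4, Rgs8 and Rgs9 were the RGS genes that set the SS arrays apart from the other 3 groups. All of them were lower a month after METH alone (MS), 2 h after METH alone (SM) and after both injections (MM), and in none of these comparisons did an array of a METH group reach the SS arrays. The METH groups lay close to each other for all 3 genes. Rgs9 regulates dopamine and opioid receptor signals in the striatum, Rgs4 acts on Gi and Gq coupled receptors in cortex and striatum, and Rgs8 is a neuronal regulator of Gi coupled receptors.

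For Rgs9, the log2 levels of the 4 SS arrays were 12.66, 12.79, 12.88 and 13.04. The SM arrays ran from 11.74 over a median of 12.04 to 12.26, the MS arrays from 11.20 over 11.96 to 12.18, and the MM arrays from 11.62 over 11.92 to 12.05. Every SS array was thus above every other array, with a gap of 0.40 log2 units to the highest SM array. The MS arrays averaged 11.88 ± 0.33 (SD, n = 7) against 12.84 ± 0.16 (SD, n = 4) in SS. This made Rgs9 1.95-fold lower in MS, a log2 difference of -0.96 ± 0.14 (SE) with a 95% confidence interval of -1.24 to -0.68 (adjusted p = 9.74e-06, limma). In SM it was 1.73-fold lower, at -0.79 ± 0.14 (SE, adjusted p = 2.59e-04, limma). MS replicate 1, one of the arrays of low weight, held the lowest value, and without it the difference of MS from SS was -0.85 (adjusted p = 2.34e-06, limma).

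For Rgs4, the SS arrays were at 11.22, 10.91, 11.45 and 11.29. The SM arrays ran from 10.29 over a median of 10.46 to 10.55, the MS arrays from 10.19 over 10.41 to 10.57, and the MM arrays from 10.39 over 10.50 to 10.67. The lowest SS array stood 0.24 log2 units above the highest MM array, the nearest of the other groups. Rgs4 was 1.77-fold lower in MS than in SS (-0.83 ± 0.09, SE, adjusted p = 1.67e-07, limma) and 1.70-fold lower in SM (-0.76 ± 0.09, SE, adjusted p = 1.47e-06, limma).

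For Rgs8, the SS arrays were at 8.62, 8.65, 8.62 and 8.83. The SM arrays ran from 7.72 over a median of 7.98 to 8.33, the MS arrays from 7.69 over 7.87 to 8.11, and the MM arrays from 7.82 over 7.95 to 8.05. SM replicate 3, an array of low weight, was the highest of the 20 arrays outside SS and still lay 0.28 log2 units under the lowest SS array. Rgs8 was 1.76-fold lower in MS (-0.82 ± 0.09, SE, adjusted p = 3.22e-07, limma) and 1.61-fold lower in SM (-0.69 ± 0.09, SE, adjusted p = 1.07e-05, limma).

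**Figure D1:**
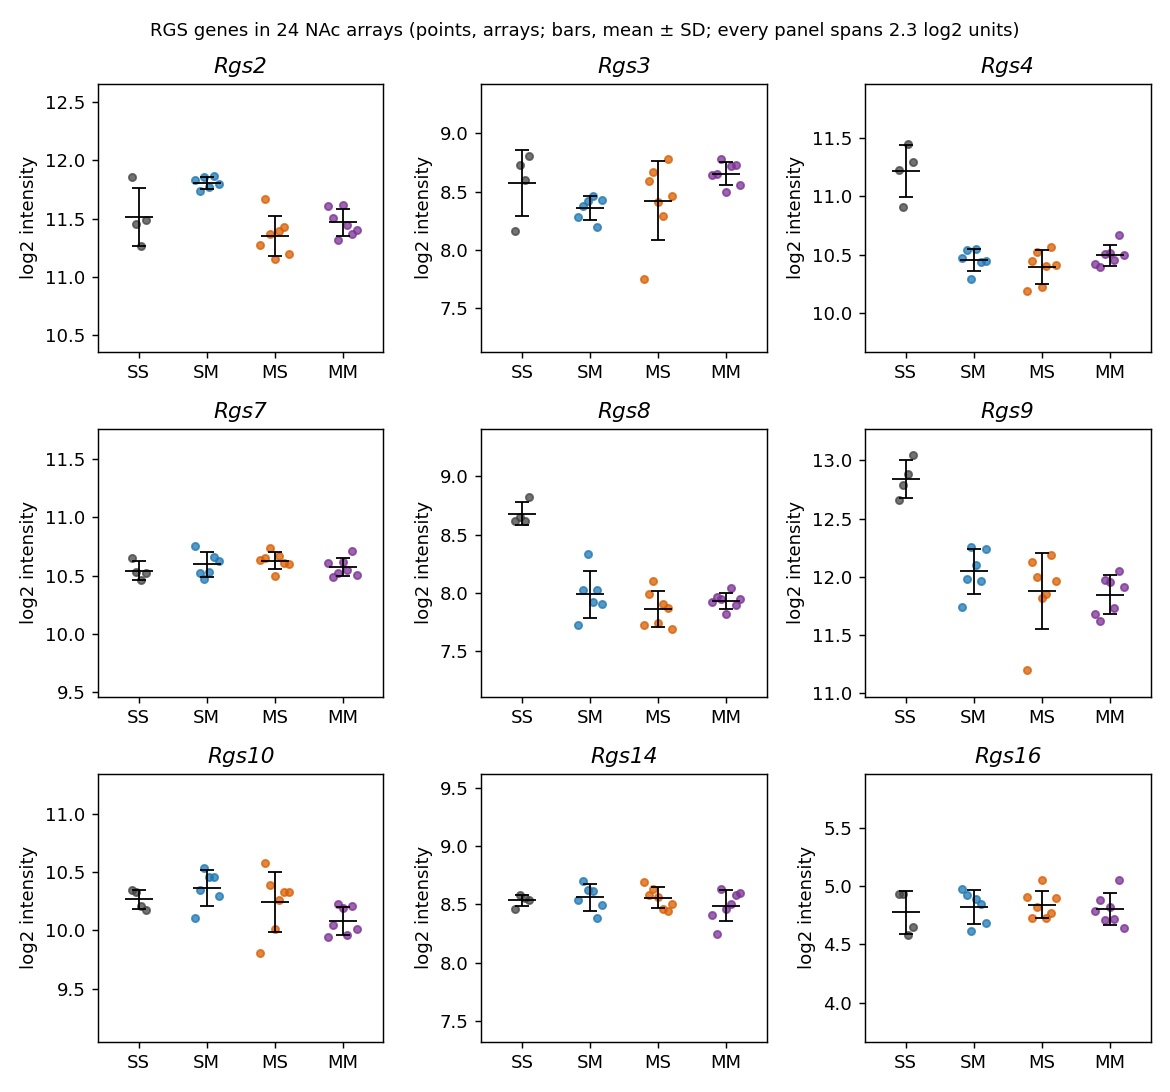
Log2 intensity of the 9 RGS genes (y axis) in the 4 groups (x axis), with 1 point per array and bars for the mean ± SD of a group of 4 (SS), 6 (SM), 7 (MS) or 7 (MM) arrays. Every SS array lies above all other arrays for Rgs4, Rgs8 and Rgs9, the SM arrays are the tightest group for Rgs2, and the axis of each panel covers the same span.

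In the exact permutation test over arrays (two-sided), each of these 3 genes gave p = 0.00606 for MS against SS and p = 0.00952 for SM against SS, which are the smallest values that 7 against 4 and 6 against 4 arrays allow. The same 3 genes were called in MM against SS, where Rgs4 was 1.65-fold, Rgs8 1.68-fold and Rgs9 1.99-fold lower. With the 3 arrays of low weight left out, an alternative chosen after seeing the data, the log2 differences were -0.79, -0.81 and -0.91 in MS and -0.73, -0.78 and -0.90 in SM, and all were called. In the order of the group levels, SS was the highest for all 3 and differed from the group next to it, while no pair of neighbours among SM, MS and MM was called. Over all probes, 18.0% were called in MS against SS, 13.7% in SM against SS and 22.5% in MM against SS, so that calls against SS were common on this array. All 3 comparisons share the 4 SS arrays, and their likeness is therefore no separate evidence.

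Seen by slide, the differences had the same direction on both. The 24 arrays lie on 2 slides, each with 2 SS arrays. Between MS and SS, Rgs4 differed by -0.72 on slide 1 and by -0.91 on slide 2, Rgs8 by -0.75 and -0.90, and Rgs9 by -0.93 and -0.96, and all of these were called. Between SM and SS, the slide 1 values were -0.63 for Rgs4, -0.61 for Rgs8 and -0.73 for Rgs9. With 2 SS arrays against 3 SM arrays none of them was called on slide 1 (adjusted p of 0.0532, 0.121 and 0.200, limma), while all were called on slide 2, at -0.89, -0.77 and -0.86. In the series matrix values, which are not scaled between arrays, the calls of Rgs4 and Rgs8 in SM against SS were lost as well (adjusted p of 0.0765 and 0.0996, limma).

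**Figure D2:**
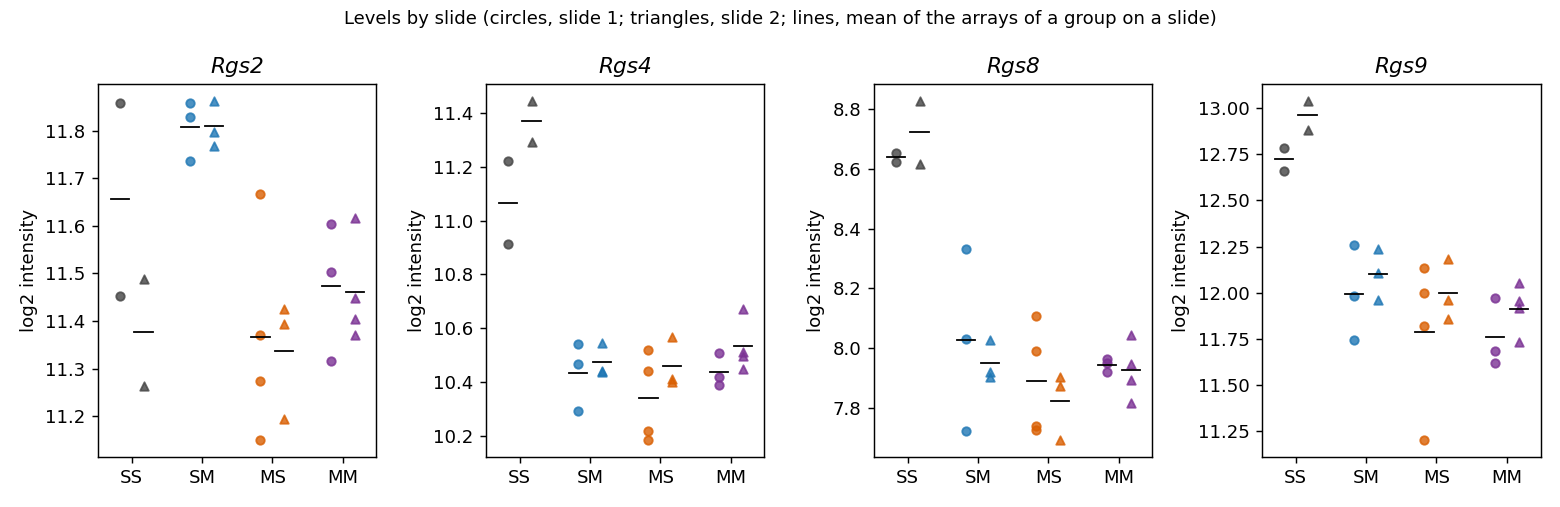
Log2 intensity (y axis) of Rgs2, Rgs4, Rgs8 and Rgs9 by group (x axis), with circles for slide 1, triangles for slide 2 and lines for the mean of the arrays of a group on a slide. The SS arrays of both slides are the highest for Rgs4, Rgs8 and Rgs9, and the mean of SM is the highest for Rgs2 on both slides.

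Markers of medium spiny neurons moved with the 3 genes. The mean log2 level of the 15 medium spiny neuron markers was 10.65 to 10.79 on the SS arrays, 10.16 to 10.39 in SM, 10.07 to 10.25 in MS and 9.99 to 10.17 in MM. Of the 15 markers, 12 were called lower in MS than in SS and 11 in SM, with none higher and median log2 differences of -0.50 and -0.42. Over all probes, 18.0% and 13.7% were called in these comparisons, in either direction. Rgs4, Rgs8 and Rgs9 thus moved in the direction of these markers, and each by more than the markers' median. The 3 genes are singled out here by their calls, and their size against that of single markers was not tested. Over 24 arrays, the correlation between a gene and the marker mean was 0.84 for Rgs4, 0.89 for Rgs8 and 0.84 for Rgs9, which includes the distance of the SS arrays from the others. Within groups, after the group means were taken out, it was 0.13 for Rgs4, 0.39 for Rgs8 and 0.14 for Rgs9. Both are descriptions.

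The hypothalamic and preoptic markers moved the other way. Their mean over 8 genes was 6.14 to 6.66 in SS, 7.01 to 7.47 in SM, 7.06 to 7.74 in MS and 7.15 to 7.51 in MM, with 6 of 8 called higher in MS and 5 of 8 in SM. Cortical neuron markers were lower too (6 of 9 called in MS and 2 of 9 in SM), as were oligodendrocyte markers (4 of 8 and 7 of 8). These counts stand beside 18.0% of all probes called in MS against SS and 13.7% in SM against SS. The list means of cortical and oligodendrocyte markers were 6.83 to 7.39 and 10.25 to 10.40 in SS. They were 6.42 to 6.61 and 9.85 to 10.12 in MS, and 6.55 to 6.93 and 9.54 to 9.95 in SM. Of 6 astrocyte markers, 1 was called higher and 1 lower in each of MS and SM. Of 6 microglia markers, 0 were called in either (2 in MS and 1 in SM at an unadjusted p under 0.05, limma). Of 4 vascular and pericyte markers, 1 was called lower in MS and 2 in SM. The part of all these markers in the differences of the RGS genes was not tested. In whole tissue, fewer cells of a type and less RNA per cell cannot be told apart.

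**Figure D3:**
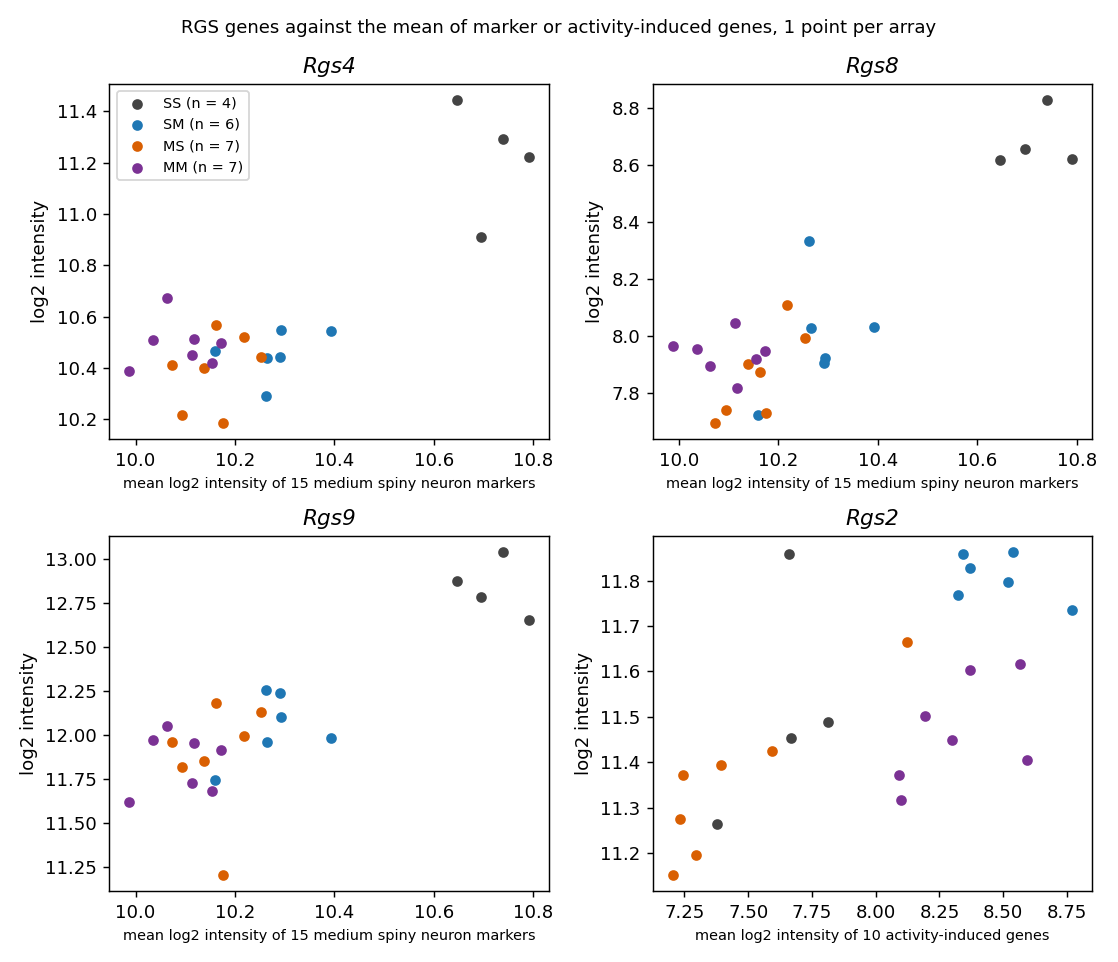
Log2 intensity of Rgs4, Rgs8 and Rgs9 (y axes) against the mean log2 intensity of 15 medium spiny neuron markers (x axes), and of Rgs2 against that of 10 activity-induced genes, with 1 point per array in the colour of its group. The 4 SS arrays lie apart at the upper right for the first 3 genes, and the SM arrays lie at the upper right for Rgs2.

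The start regions of these genes are shown with that of Rgs2, the member that was highest in SM, because these are the members whose levels moved. Each window holds 250 bases before and 50 bases after the gene's start, from the RefSeq promoter table of build GRCr8, in which all 9 members were found. Capitals mark CGTCA, the core of the cAMP response element, and the TATA box TATAAA, and both strands were searched.
Rgs4, chr13:84475835-84476134, minus strand: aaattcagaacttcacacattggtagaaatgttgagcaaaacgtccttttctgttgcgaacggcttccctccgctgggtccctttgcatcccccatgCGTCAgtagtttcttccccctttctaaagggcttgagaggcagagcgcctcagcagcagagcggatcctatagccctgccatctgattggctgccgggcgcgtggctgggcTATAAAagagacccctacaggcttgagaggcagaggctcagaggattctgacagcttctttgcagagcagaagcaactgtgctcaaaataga
Rgs8, chr13:68366648-68366947, plus strand: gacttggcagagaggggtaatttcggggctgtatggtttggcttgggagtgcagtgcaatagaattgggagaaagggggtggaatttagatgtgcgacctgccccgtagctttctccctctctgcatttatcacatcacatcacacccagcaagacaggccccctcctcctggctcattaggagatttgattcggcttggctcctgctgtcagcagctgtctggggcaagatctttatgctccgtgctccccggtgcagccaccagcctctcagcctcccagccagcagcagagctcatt
Rgs9, chr10:94770338-94770637, minus strand: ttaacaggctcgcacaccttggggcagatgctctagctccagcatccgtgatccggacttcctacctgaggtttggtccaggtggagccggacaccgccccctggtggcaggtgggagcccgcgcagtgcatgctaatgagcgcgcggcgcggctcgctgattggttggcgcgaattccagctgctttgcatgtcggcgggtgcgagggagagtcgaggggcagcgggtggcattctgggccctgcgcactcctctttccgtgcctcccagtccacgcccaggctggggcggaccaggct
Rgs2, chr13:58352617-58352916, minus strand: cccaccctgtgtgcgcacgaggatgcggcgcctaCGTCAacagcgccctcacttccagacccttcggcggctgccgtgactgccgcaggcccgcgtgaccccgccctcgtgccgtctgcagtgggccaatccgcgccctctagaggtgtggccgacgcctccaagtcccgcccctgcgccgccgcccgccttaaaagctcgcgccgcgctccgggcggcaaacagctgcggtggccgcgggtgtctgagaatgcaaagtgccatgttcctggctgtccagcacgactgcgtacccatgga
The Rgs4 window holds the core 153 bases before the start and a TATA box 42 bases before it. The Rgs2 window holds the core 216 bases before the start and no TATA box, and the Rgs8 and Rgs9 windows hold neither. Among all 33469 windows of that table, 21.2% hold the core and 14.2% the TATA box, against 3 and 2 of the 9 members, the further one being Rgs3 in both cases. The full cAMP response element TGACGTCA, which contains the core, lies in 1.83% of windows and the AP-1 site TGANTCA in 7.33%, and neither was found in a window of the 9 members. The 3 genes that moved together shared none of the searched motifs.

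The members lie on 5 chromosomes, and 5 of them (Rgs2, Rgs4, Rgs7, Rgs8 and Rgs16) on chromosome 13. In the gene order of GRCr8, no protein-coding gene lies between Rgs8 and Rgs16, nor between Rgs4 and Rgs5. Neither neighbour was measured well, as Rgs5 was detected on 1 array and Rgs16 was dim. The group means of Rgs16 were 4.78 ± 0.19 (SS), 4.82 ± 0.14 (SM), 4.84 ± 0.12 (MS) and 4.80 ± 0.14 (MM, all SD), which is close to background, and a difference of it was not detectable at this signal.

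Rgs2 was highest 2 h after METH in rats with no METH before. It encodes a regulator with a preference for Gq alpha subunits, and its transcription is quickly induced by neuronal activity. The SS arrays were at 11.86, 11.45, 11.26 and 11.49. The SM arrays lay in a narrow band from 11.74 over a median of 11.81 to 11.86, the MS arrays ran from 11.15 over 11.37 to 11.67, and the MM arrays from 11.32 over 11.45 to 11.62. All 6 SM arrays were above all MS and MM arrays, while SS replicate 1, an array of low weight, lay within the SM range.

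Rgs2 was 1.22-fold higher in SM than in SS (0.29 ± 0.10, SE, adjusted p = 0.0480, limma), and the exact permutation test over 6 against 4 arrays (two-sided) gave p = 0.0571. It was 1.27-fold lower in MM than in SM (-0.34 ± 0.08, SE, adjusted p = 0.0451, limma), where the exact permutation test gave p = 0.00117, the smallest that 7 against 6 arrays allow. In MM against MS the difference was 0.11 with a 95% confidence interval of -0.06 to 0.28, and it was not called (adjusted p = 0.604, limma). The interaction, which sets MM against MS beside SM against SS, was -0.18 for Rgs2 (95% confidence interval -0.44 to 0.08). It was not called (adjusted p = 0.459, limma), so that a dependence of the rise on the first injection was not shown. Of all probes, 1.13% were called in MM against MS, with no RGS gene among them (0 of 9 also at an unadjusted p under 0.05, limma), and 1.29% in MM against SM, with Rgs2 as the only member. SM was the highest of the 4 groups and differed from SS next to it, while SS, MM and MS did not differ from their neighbours. Between the 2 groups with a single METH injection, Rgs2 was lower in MS than in SM (-0.45 ± 0.08, SE, adjusted p = 0.00674, limma), a comparison in which 0.649% of probes were called. This call was lost with median scaling (adjusted p = 0.0964), with the series matrix values (0.543) and on either slide alone (0.715 on slide 1 and 0.0867 on slide 2, limma), at values of -0.58 to -0.44.

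The calls of Rgs2 lay near the threshold. Without SS replicate 1 the difference of SM from SS was 0.41 (adjusted p = 0.00415, limma), and without SS replicate 3 it was 0.21 (adjusted p = 0.217, limma). Leaving out 1 array ended the call in 17 of 24 cases for SM against SS and in 15 of 24 for MM against SM, where the adjusted p was at most 0.0864. The call of SM against SS was also lost with no background correction (adjusted p = 0.0621), no filter (0.0648), only the arrays compared (0.127), median scaling (0.179) and the series matrix values (0.209, limma). That of MM against SM was lost with no filter (0.0612), no background correction (0.0690), median scaling (0.151) and the series matrix values (0.529). On slide 1 the difference of SM from SS was 0.15 and on slide 2 it was 0.43, and that of MM from SM was -0.33 and -0.35. With the 3 arrays of low weight left out together, both calls were kept, at 0.40 and -0.33.

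Genes induced by neuronal activity rose after METH at the second injection, both in rats given saline and in rats given METH before. Of 10 such genes tested, 6 were higher and 1 lower in SM than in SS, and 7 were higher in MM than in MS, beside medians of 0.0061 and -0.0017 over all probes. The median log2 differences of the 10 genes were 0.90 and 0.85. Of all probes, 13.7% were called in SM against SS and 1.13% in MM against MS. Fos, the best known of them, rose by 1.70 ± 0.19 (SE) in SM and by 1.74 ± 0.15 (SE) in MM against MS (adjusted p = 3.88e-07 and 2.31e-07, limma). Nr4a3 rose by 1.94 and 1.33, Egr4 by 1.26 and 0.94. None of the 10 was called between MM and SM by limma (3 at an unadjusted p under 0.05), where Fos was at 0.22 (adjusted p = 0.526). That is near the share over all probes, of which 1.29% were called in MM against SM. Over the arrays with group means taken out, Rgs2 correlated with the mean of the 10 genes at r = 0.60, as a description over 24 arrays that share groups and slides.

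The mean level of 2 choroid plexus genes separated the MM arrays from the others. The mean of the 2 tested genes of this list, of 6 with a probe, was 6.73 to 10.04 in MM, 4.71 to 5.98 in SM, 4.71 to 5.09 in MS and 5.48 to 6.59 in SS. Of the 2 genes, 1 was called higher in MM against MS, 1 in MM against SM and 2 in MM against SS (limma). Over all probes, 1.13%, 1.29% and 22.5% were called in these comparisons. The higher choroid plexus mean of MM stands beside every comparison with MM, that of Rgs2 in MM against SM included. Its part in them was not tested.

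The other members did not pass the test in any comparison of the design. For Rgs3, an R4 family gene, the group means were 8.57 ± 0.29 (SS), 8.36 ± 0.10 (SM), 8.42 ± 0.34 (MS) and 8.65 ± 0.10 (MM, all SD). All 7 MM arrays lay above all 6 SM arrays, by a gap of 0.04 log2 units, with a difference of 0.30 ± 0.12 (SE). The exact permutation test (two-sided) gave p = 0.00117, but after adjustment over all probes the difference was not called (adjusted p = 0.217, limma). Its lowest values were 7.75 on MS replicate 1 and 8.16 on SS replicate 1, both arrays of low weight. With the 3 arrays of low weight left out, Rgs3 was called lower in SM than in SS (-0.36, adjusted p = 0.00751, limma) and higher in MM than in SM (0.31, adjusted p = 0.0372, limma).

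Rgs10, an R12 family gene that microglia and neurons express, had group means of 10.27 ± 0.08 (SS), 10.37 ± 0.15 (SM), 10.25 ± 0.26 (MS) and 10.08 ± 0.12 (MM, all SD). Between MM and SM it differed by -0.28 with a 95% confidence interval of -0.48 to -0.09, and the groups overlapped (adjusted p = 0.131, limma). Of 6 microglia markers, 0 were called in that comparison by limma and 1 had an unadjusted p under 0.05, with list means of 7.44 to 7.63 in SM and 7.47 to 7.66 in MM. The count is near the 1.29% of all probes called there.

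Rgs7, the second R7 family member, differed from SS by 0.09 (95% confidence interval -0.05 to 0.22) in MS and by 0.05 (-0.09 to 0.19) in SM. Its group means ran from 10.54 ± 0.08 (SD, n = 4) in SS to 10.63 ± 0.07 (SD, n = 7) in MS. The intervals of Rgs7 thus lay wholly above those of Rgs9, the other R7 family member, in both comparisons. Rgs14, which is known for its expression in the hippocampus, differed by 0.02 (-0.13 to 0.18) in MS and by 0.03 (-0.13 to 0.19) in SM.

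**Figure D4:**
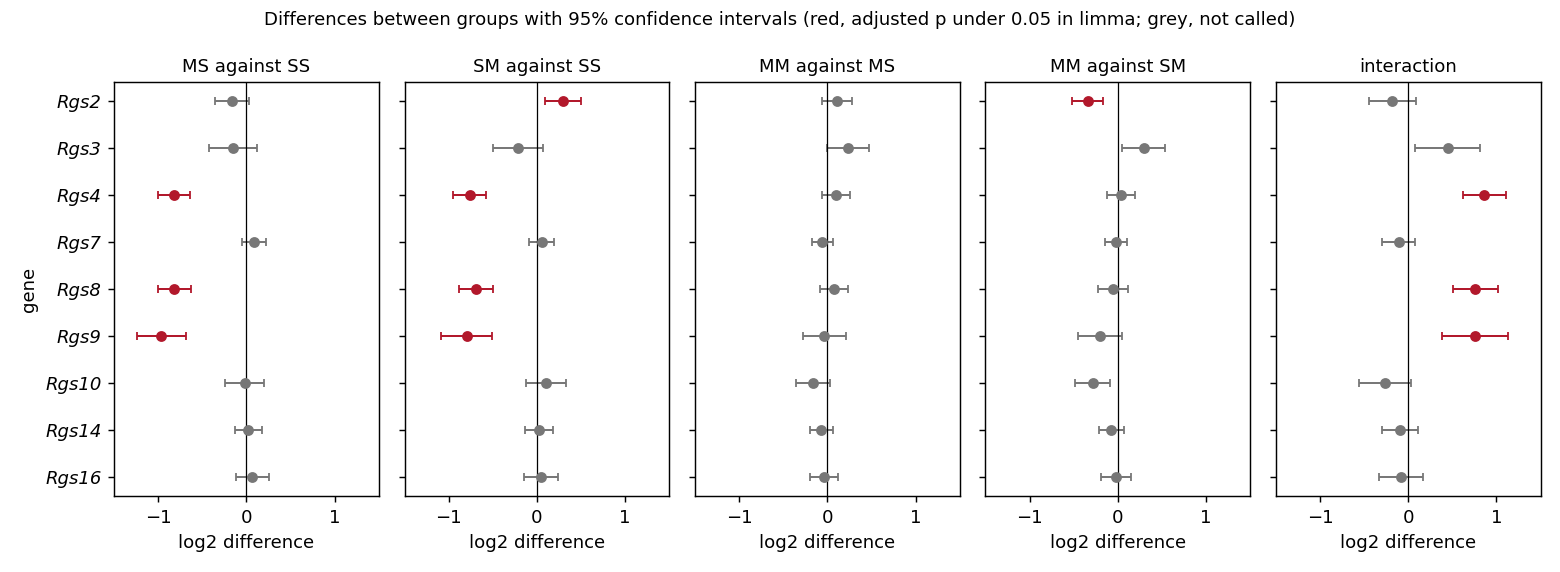
Log2 differences between groups (x axes) with 95% confidence intervals for the 9 RGS genes (y axis), in the 4 comparisons of 2 groups and the interaction. Red marks an adjusted p under 0.05 (limma). Rgs4, Rgs8 and Rgs9 are lower in both comparisons with SS and positive in the interaction. Rgs2 is called in SM against SS and in MM against SM but not in the interaction, and no gene is called between MM and MS.

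The interaction asks whether the difference after METH at the second injection depended on the first one. It was positive and called for Rgs4 (0.86 ± 0.12, SE, adjusted p = 2.98e-05, limma), Rgs8 (0.76 ± 0.12, SE, adjusted p = 2.17e-04) and Rgs9 (0.76 ± 0.18, SE, adjusted p = 0.00898). After saline the second injection went with lower levels (-0.76, -0.69 and -0.79), and after METH with differences of 0.10, 0.07 and -0.03. No RGS gene was called lower in the interaction, and 7.68% of all probes were called in it. This contrast uses the same 4 SS arrays as the comparisons above, and without the 3 arrays of low weight it was 0.79, 0.83 and 0.75. Of the 15 medium spiny neuron markers, 7 were called higher in the interaction, with a median of 0.36. On slide 1 alone none of Rgs4, Rgs8 and Rgs9 was called (adjusted p of 0.180, 0.330 and 0.541, limma), with values of 0.73, 0.66 and 0.70. Rgs3 was at 0.45 ± 0.18 (SE, adjusted p = 0.135, limma), and at 0.58 (adjusted p = 0.0314) without SS replicate 1.

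Over the 9 members as a list, the median log2 difference was -0.15 in MS against SS, 0.03 in SM against SS, -0.03 in MM against MS, -0.06 in MM against SM and -0.08 in the interaction, beside medians over all probes between -0.0017 and 0.0061. The members did not move as one list. Among the 36 pairs of members, the correlation with group means taken out ran from -0.53 to 0.78 with a median of 0.03 over 24 arrays. The highest was that of Rgs3 with Rgs9 at 0.78, next to Rgs9 with Rgs10 at 0.74. Rgs4 and Rgs8, which moved together between groups, were at 0.03 within groups, and Rgs9 stood at 0.50 with Rgs4 and 0.42 with Rgs8.

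Beyond the 9 members, 9 of 17 other RGS genes and R7 partners had a probe and 4 passed the filter. Rgs12, an R12 family gene, was lower than in SS in both MS (-0.59 ± 0.13, SE, adjusted p = 0.00123, limma) and SM (-0.66, adjusted p = 8.94e-04), and its interaction was 0.77 (adjusted p = 0.00476). Its mean level was 8.28 ± 0.37 in SS and 7.62 ± 0.26 in SM (SD). Rgs17, a regulator of the RZ family, was higher in MS (0.36, adjusted p = 0.0168) and in SM (0.35, adjusted p = 0.0291). Its mean was 8.56 ± 0.11 in MM and 7.86 ± 0.10 in SS (SD). Gnb5, the beta subunit that R7 proteins pair with, was at -0.12 in MS and -0.14 in SM (adjusted p of 0.565 and 0.541), and Rgs19 at -0.03 and 0.21 (adjusted p of 0.891 and 0.202), so that neither passed. Rgs9bp, an anchor of R7 proteins in the retina, was detected on 3 arrays, and Rgs1, Rgs18 and Rgs20 on none.

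Among the G protein-coupled receptors of the striatum, more were called lower than higher against SS. Of 11 striatal receptors tested, 7 were called lower and 1 higher in MS than in SS, and 5 lower and 1 higher in SM, with medians of -0.43 and -0.32, where 18.0% and 13.7% of all probes were called in either direction. The cannabinoid receptor Cnr1 was at -1.11 in MS and -1.12 in SM, and the dopamine receptor Drd2 at -0.76 and -0.60. Drd1, the other main dopamine receptor of the striatum, was at -0.50 and -0.34, and the adenosine receptor Adora1 at -0.48 and -0.47. The adjusted p of these 8 values was at most 0.00461 (limma). The 1 receptor called higher was the serotonin receptor Htr2c, at 0.61 and 0.62 (adjusted p of 0.00407 and 0.00607). None of the 11 was called between MM and MS or between MM and SM (limma, with 0 and 3 of them at an unadjusted p under 0.05). Only 1.13% and 1.29% of all probes were called in these comparisons, so that no call among 11 genes is near the share over all probes.

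Among the alpha subunits of G proteins, 2 of 11 were called higher in MS than in SS and none lower, which is near the 18.0% of all probes called there. These were Gnas (0.89, adjusted p = 0.00143, limma), which stimulates adenylyl cyclase, and Gnai1 (1.02, adjusted p = 0.00382), which inhibits it. In SM, where 13.7% of probes were called, the only call was Gna12, which was lower (-0.54, adjusted p = 0.0013), and it was higher in MM than in SM (0.39, adjusted p = 0.0436). Gnal, the stimulating subunit that prevails in the striatum, was at -0.25 in MS and -0.20 in SM and was not called (adjusted p of 0.144 and 0.289), and it is named after its values were seen. Of 7 beta and gamma subunits tested, Gng7 was lower in MS (-0.60, adjusted p = 5.40e-04) and in SM (-0.45, adjusted p = 0.0135). Gng13 was lower in MS (-0.36, adjusted p = 0.0429).

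The enzymes that make cAMP moved both ways. Adcy5, the main striatal adenylyl cyclase, was lower in MS (-0.78, adjusted p = 8.86e-05, limma) and in SM (-0.72, adjusted p = 5.06e-04), and Adcy3 was lower as well (-0.51 and -0.48). Adcy8 and Adcy2 were higher, at 0.85 and 0.63 in MS and at 0.63 and 0.51 in SM. Over the 9 effectors tested, 2 were called higher and 3 lower in MS, the last being Plcb3 (-0.33, adjusted p = 0.0350), named after its value was seen. In SM 2 were higher and 2 lower, and the medians were -0.17 and -0.04. Of all probes, 18.0% were called in MS against SS and 13.7% in SM against SS.

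Of 12 receptor kinases, arrestins and other modulators tested, 2 were called lower in MS (Rasd2 and Gpsm3), and 1 was higher (Rasd1) and 3 were lower (Rasd2, Gpsm3 and Grk4) in SM. The count in MS is near the 18.0% of all probes called in that comparison, and 13.7% of probes were called in SM. Rasd2, a small GTPase of the striatum, was at -1.18 in MS and -0.96 in SM (adjusted p = 3.10e-07 and 1.67e-05, limma). Rasd1, a related GTPase that is quickly induced, rose by 0.79 ± 0.14 (SE) in SM and by 0.50 ± 0.11 (SE) in MM against MS (adjusted p = 1.74e-04 and 0.0211).

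The genes whose levels were most like those of each member were found over 24 arrays among 9096 other named probes. The correlations are descriptions, and the arrays share groups, slides and the distance of the SS arrays from the others. Rgs9 was most like Rasd2 (r = 0.98), Hpca (0.96) and Scn4b (0.95), and with group means taken out it was still most like Rasd2 (0.94), before Rxrb (0.91) and Zfp523 (0.90). Rgs4 was most like Pik3cd, Slc22a3 and Smpd3 (0.93 each), and within groups like Neurl2, Lactb and Fgfrl1 (0.72 each). Rgs8 was most like Pmepa1 (0.93), Nmu (0.93) and Cacnb3 (0.92), and within groups like Xab2 (0.86), Klf5 (0.80) and Ier2 (0.79).

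Rgs2 was most like the clock genes Per2 (0.85) and Per1 (0.83) and like Cebpb (0.79), and within groups like Itgb6 (0.83), Calb1 (0.82) and Nr4a3 (0.78). For Rgs3 the most like were Emc10 (0.93), Stard3 (0.91) and Tubb4b (0.91), and within groups Mgat4b (0.94), Atf6b (0.94) and Camta2 (0.93). Rgs10 was most like Trim39 (0.78), Agmat (0.77) and Trpv1 (0.77), and within groups like Tnni3 (0.86), Ube2b (0.84) and Scn4b (0.83). Rgs7 and Rgs14 kept genes in both lists, Cndp1 (0.78 and 0.77) for Rgs7 and Ccdc69 (0.72 and 0.73) and Knop1 (0.72 and 0.74) for Rgs14. The dim Rgs16 had no correlation above 0.73.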

How the data were processed

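Total RNA of 24 NAc samples was measured on 1-colour Illumina BeadChips. The authors deposited background-subtracted intensities made with BeadStudio (version not given in the sources used here), not scaled between arrays and reaching down to -21. The deposited detection p-values are held as 1 minus p in another order than the intensities (Spearman correlation -0.00699 to 2.47e-04 per array), and were therefore paired with them by rank within each array. In the authors' series matrix, the log2 values equal the log2 of the deposited intensities with values under 1 (26.1% of them) set to 1, less each probe's median, within 2.32e-06.

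Intensities were background-corrected and quantile-normalized (neqc, offset 16) with limma 3.58.1 in R 4.3.3. The 12951 of 22523 probes that reached a detection p under 0.05 on 4 arrays or more entered a model with a mean for each group, fitted to all 24 arrays, and p-values were adjusted over these probes (Benjamini-Hochberg). Of all probes, 13793 carried 1 gene symbol and 8730 none. Single values were also compared by two-sided exact permutation tests (Python 3.11.15, numpy 2.4.6, pandas 2.3.3, scipy 1.17.1, figures with matplotlib 3.10.9). The fit was tested on simulated data. The number of arrays limits the precision.

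The 9 genes, the 7 pathway lists and the 8 marker lists were chosen with earlier results of these data known. All members and the tested genes among the other RGS genes were named. Further names were drawn mainly from up to 4 called genes of lowest p per further pathway list and comparison. The 3 genes most like each member were the other main source. Not all of these genes are printed, and Gnaq, Junb, Dusp1 and the genes most like Rgs16 are among those left out. The alternatives varied background correction, offset (50), scaling (median, or the series matrix values), the filter (none, or a detection p under 0.01), slide (a block, or 1 slide at a time), the arrays in the fit, moderation and array weights, and left out each array in turn. Promoter windows and gene order came from RefSeq tables of GRCr8. Replicate numbers only name arrays and pair nothing.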

Additional observations from a re-analysis of the deposited data

Results flagged for a closer look

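In 1 of 36 sets of values (9 genes in 4 groups), an array stood apart from the rest of its group. This was Rgs9 on MS replicate 1, at 11.20 (11.2025) on the log2 scale, against a mean of 11.99 over the other 6 MS arrays and 11.82 on the nearest of them. The gap was 0.627 of the whole range of the group, and the deposited intensity there was 2567. Chance alone marks about 1 set in 20 by this criterion. The same array had a weight of 0.320 and held the lowest MS value of Rgs3, at 7.75.

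The difference after METH at the second injection itself differed between rats given saline and rats given METH at the first one, by limma's interaction term, for Rgs4 (0.8627), Rgs8 (0.7624) and Rgs9 (0.7616). For these genes SM was below SS on every array, and MM and MS overlapped.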

How the results depend on the processing

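Over 37 other settings, none of the 15 called differences of single RGS genes changed its direction, and 6 kept their call under all of them, namely those of Rgs4, Rgs8 and Rgs9 in MS against SS and in MM against SS. The number of RGS genes called in MS against SS stayed at 3 throughout, and that in MM against MS at 0 (limma). In SM against SS it fell from 4 to 1 with the series matrix values and to 0 on slide 1 alone, and to 3, without Rgs2, with no background correction, median scaling, no filter or only the arrays compared. It was 5 without the 3 arrays of low weight, with Rgs3 added, and ran from 3 to 4 with single arrays left out. In MM against SM it fell from 1 to 0 with no background correction, median scaling, the series matrix values, no filter, slide 1 alone or slide 2 alone. It was 2 with only the arrays compared or the 3 arrays of low weight left out, with Rgs3 beside Rgs2, and 0 to 1 with single arrays left out. In the interaction it fell from 3 to 0 with the series matrix values and on slide 1 alone, was 4 with array weights and without the 3 arrays of low weight (Rgs3 added, adjusted p of 0.0464 and 0.00892, limma), and ran from 3 to 4 with single arrays left out. In MS against SM the call of Rgs2 was lost with median scaling, with the series matrix values and on either slide alone. On single slides the fits have fewer arrays, and for the others the cause was not tested.

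The series matrix values moved the median of all probes by 0.14 in MS against SS, 0.24 in SM against SS, -0.11 in MM against SM and -0.25 in the interaction. Relative to these medians Rgs2 stood at 0.23 in SM against SS and Rgs9 at -0.90. Under these values 441 probes were called higher and 86 lower in SM against SS, against 787 and 983 in the report, and 509 and 227 in MS against SS, against 1140 and 1197. No paired analysis was possible because the labels give no replicate numbers that tie arrays of different groups to each other. With the slide as a block no call of an RGS gene changed.

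Over all probes, the number called was 2337 in MS against SS, 1770 in SM against SS, 146 in MM against MS, 167 in MM against SM and 995 in the interaction. It fell to 444, 161, 0, 0 and 19 on slide 1 alone, and with the series matrix values it was 736, 527, 8, 10 and 159. Array weights gave 604 in MM against MS and 442 in MM against SM, and leaving out the 3 arrays of low weight gave 3498 in SM against SS and 2042 in the interaction. With median scaling, 585 probes were called higher and 484 lower in SM against SS.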
